A study of Mus musculus with 16 samples.

Results

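The Zfp900 to Zfp999 genes are the mouse zinc finger genes whose symbols run from Zfp900 up to Zfp999. Genes were taken by symbol, from the mm10 annotation of the Ensembl identifiers, and the range itself was chosen with earlier results of these data known. The rule found 54 genes among the 26296 gene identifiers of the male and female tables, and 50 of them stood in both tables. Zfp965, Zfp967, Zfp978 and Zfp980 stood in the male table only, and 10 further annotated genes of the name range were not analysed here.

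Most genes of this range belong to the KRAB zinc finger family. The C2H2 zinc fingers of such a protein bind DNA, and its KRAB box binds the corepressor TRIM28, which brings the histone methyltransferase SETDB1 and heterochromatin proteins to the bound site. The family is best known for silencing transposable elements, and it grows by tandem duplication, which has left rodents with clusters of closely related genes. In mouse liver the KRAB zinc finger gene Rsl1 is known for holding down male-biased genes in females.

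The 16 libraries came from livers of 16 mice, 1 library per mouse. The groups were 4 male LKO, 4 male floxed, 4 female LKO and 4 female floxed mice, and every mouse carried floxed Matr3 alleles. LKO mice also carried Cre recombinase under the albumin promoter, which is active in hepatocytes. Deletion in other liver cells was not measured here. Floxed mice, littermates per the labels, were without Cre. All mice received a diet with 60% fat from 7 weeks of age for 16 weeks and were fasted for 12 hours before tissue collection. Matrin-3 is a nuclear protein that binds RNA.

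Each library held between 30495505 and 36496193 counts assigned to genes. Levels are given as CPM, counts scaled to a common library size after TMM normalization. Matr3 averaged 35.4 CPM in male LKO and 57.8 CPM in male floxed livers, and 38.1 CPM in female LKO and 58.1 CPM in female floxed livers. It fell by 0.71 in males (SE 0.06, edgeR adjusted p = 0.000807) and by 0.61 in females (SE 0.08, edgeR adjusted p = 0.00437) on the log2 scale. In males the summed CPM of 5 hepatocyte markers ran from 65747 to 75078 in LKO and from 59389 to 76858 in floxed livers. In females the same sum ran from 28977 to 46326 in LKO and from 54022 to 63708 in floxed livers. Of these 5 markers in females, Alb (-0.88) and Ttr (-0.75) were lower, while Cps1, Apoa1 and Serpina1c had log2 fold changes of 0.40, 0.51 and 0.06 and did not pass the threshold, so the list had a median of 0.06. By the labels, male floxed 1 and 2 have codes numbered far from those of the other libraries. On the first principal component of the female libraries (52.4% of the variance) LKO 7 scored 4.5, against 26.6 to 34.1 in the other LKO libraries. Floxed 4 scored -8.7 there, against -32.2 to -26.4 in the other floxed libraries. The main results are also given without these libraries.

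Of the 54 genes 53 were annotated as protein coding, and Zfp939 was a transcribed pseudogene. The 53 coding regions gave proteins of 139 to 794 residues (median 503) with 0 to 21 C2H2 fingers (median 11). A KRAB A box was found in 29 of them by a pattern that starts with F, and in 42 when F or Y was allowed in that place. The genes fell into 25 groups when neighbours with starts within 1 Mb were joined, and 20 of these groups were single genes. The larger ones lay on chromosome 4 (145670685 to 147848366, 12 genes), chromosome 17 (21567008 to 22867134, 10 genes), chromosome 2 (176521056 to 178078476, 6 genes), chromosome 7 (42579783 to 42692742, 3 genes) and chromosome 8 (69209038 to 69749970, 3 genes), all in mm10. Reads of such recent copies can be shared. The share of the 50-base words of a gene's transcripts that also occur in other genes ranged from 0 to 100% with a median of 16.3%, and it was above 50% for 13 genes and under 10% for 22 genes. The sources used here do not say how such reads were counted.

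The genes were expressed at low to moderate levels in liver. Per kilobase of exon, Zfp970 had the highest mean over the 16 libraries, 9.73 ± 4.03 CPM per kb (SD). It was followed by Zfp946 at 4.85 ± 0.524, Zfp944 at 3.97 ± 0.271, Zfp942 at 2.59 ± 0.250, Zfp932 at 2.53 ± 0.490 and Zfp943 at 2.53 ± 0.245 CPM per kb. Zfp942, Zfp932 and Zfp943 lay within their spread of one another. Of the 6, Zfp942, Zfp943, Zfp944 and Zfp946 lie in the chromosome 17 cluster, and none of these 4 was called in any comparison. Zfp942 averaged 14.8 ± 0.790 CPM in male LKO and 13.5 ± 0.947 CPM in male floxed livers, and 14.03 ± 1.11 CPM in female LKO and 12.2 ± 1.076 CPM in female floxed livers (SD, n = 4 each). Zfp943 averaged 12.1 ± 0.443 CPM in male LKO and 13.5 ± 1.27 CPM in male floxed livers, and 10.9 ± 0.353 CPM in female LKO and 11.9 ± 0.601 CPM in female floxed livers. The group means of Zfp944 lay between 10.97 and 11.2 CPM in all 4 groups. At the other end, Zfp965, Zfp967, Zfp973, Zfp978, Zfp980, Zfp985, Zfp987 and Zfp988 stayed under the count filter, with 2 to 34 counts in all libraries that listed them, and were not tested in any comparison.

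The 12 genes on chromosome 4 include Zfp979 and Zfp982, which had the largest falls in LKO livers among the genes called here. Zfp979 (ENSMUSG00000066000; mm10 chromosome 4, 147611937 to 147642513, minus strand) encodes 407 residues with 3 fingers by the pattern used. Zfp982 (ENSMUSG00000078496; chromosome 4, 147492417 to 147513486, plus strand) encodes 368 residues with 7 fingers. Both hold a KRAB A box, and the proteins were identical at 46.2% of aligned positions. Zfp984 (ENSMUSG00000078495; chromosome 4, 147753974 to 147809788, minus strand) and Zfp933 (ENSMUSG00000059423; chromosome 4, 147822986 to 147848366, minus strand) lie beside them. The promoter windows of these 4 neighbours are shown because the first pair fell in LKO livers and the second pair had adjusted p above the threshold. Each runs from 250 bases before to 50 after the RefSeq start in GRCm38.p6, and capitals mark GGGCGG and CCAAT on either strand (ATTGG is CCAAT on the other strand).
Zfp979, chr4:147642459-147642758, minus strand: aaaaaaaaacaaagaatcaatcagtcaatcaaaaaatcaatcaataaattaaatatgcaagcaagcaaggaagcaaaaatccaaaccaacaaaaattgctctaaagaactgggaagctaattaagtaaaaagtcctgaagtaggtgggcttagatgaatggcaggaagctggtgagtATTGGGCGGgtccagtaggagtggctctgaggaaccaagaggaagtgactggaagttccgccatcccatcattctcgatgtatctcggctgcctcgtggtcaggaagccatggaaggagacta
Zfp982, chr4:147492167-147492466, plus strand: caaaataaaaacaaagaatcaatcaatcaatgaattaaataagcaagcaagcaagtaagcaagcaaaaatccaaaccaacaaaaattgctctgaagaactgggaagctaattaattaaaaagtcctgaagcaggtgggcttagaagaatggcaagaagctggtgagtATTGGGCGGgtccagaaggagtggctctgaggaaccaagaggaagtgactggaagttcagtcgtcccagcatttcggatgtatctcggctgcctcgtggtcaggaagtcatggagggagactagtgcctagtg
Zfp984, chr4:147809739-147810038, minus strand: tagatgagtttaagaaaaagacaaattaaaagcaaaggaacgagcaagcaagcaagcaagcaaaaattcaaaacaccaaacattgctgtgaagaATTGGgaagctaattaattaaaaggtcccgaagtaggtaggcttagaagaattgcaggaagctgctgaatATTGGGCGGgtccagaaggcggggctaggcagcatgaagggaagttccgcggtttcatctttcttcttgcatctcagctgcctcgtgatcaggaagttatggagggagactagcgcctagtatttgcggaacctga
Zfp933, chr4:147848369-147848668, minus strand: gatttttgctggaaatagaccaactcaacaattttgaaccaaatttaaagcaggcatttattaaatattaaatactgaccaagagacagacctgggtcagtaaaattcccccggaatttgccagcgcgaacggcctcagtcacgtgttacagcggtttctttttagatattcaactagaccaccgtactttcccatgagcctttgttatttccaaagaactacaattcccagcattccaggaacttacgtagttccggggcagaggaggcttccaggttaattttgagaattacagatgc

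The windows of Zfp979 and Zfp982 were identical at 85.9% of aligned positions (269 of 313). Zfp984 was identical to Zfp982 at 73.8% and to Zfp979 at 69.1%, and Zfp933 to Zfp982 at 51.9% and to Zfp979 at 50.1%. Motifs were searched on both strands. The motif TATAAA was in 0 of the 56 windows of the Zfp900 to Zfp999 genes and in 13.6% of all 32851 windows of the same length. The motif GGGCGG was in 35.7% of these genes' windows and in 35.7% of all windows. The motif CCAAT was in 76.8% (43 of 56), against 37.4% of all windows. In Zfp979, Zfp982 and Zfp984 the last pair of motifs overlapped as ATTGGGCGG, and this joined form, picked after the windows were seen, was in 8 of the 56 windows (14.3%) and in 0.256% of all windows. The 8 windows were those of Zfp947, Zfp979, Zfp980, Zfp982, Zfp984, Zfp985, Zfp988 and Zfp994. Duplicated genes share sequence by descent, so the windows are not independent. Whether any of these motifs has a part in the changes in LKO livers was not tested.

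The first comparison set LKO males against floxed males, which asks what loss of matrin-3 in hepatocytes changes in the male liver. Zfp979 and Zfp982 were lower in LKO males, and no gene of the range was higher at the threshold. Zfp979 measured 2.47, 2.21, 2.47 and 2.67 CPM in male LKO 5 to 8, against 7.18, 13.1, 7.11 and 4.75 CPM in male floxed 1 to 4. All 4 LKO values lay below all 4 floxed values, and floxed 2 was the highest. The log2 fold change was -1.71 (SE 0.27, edgeR adjusted p = 0.0158). Zfp982 measured 1.77, 1.81, 1.82 and 1.98 CPM in male LKO 5 to 8, against 5.32, 6.64, 4.06 and 3.2 CPM in male floxed 1 to 4. Again the groups did not overlap, and the LKO values lay close together while the floxed ones were spread. Its log2 fold change was -1.38 (SE 0.22, edgeR adjusted p = 0.0153). Of the 50-base words of their transcripts, 26.7% for Zfp979 and 11.9% for Zfp982 occurred in other genes.

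Without male floxed 1 and 2 the log2 fold changes were -1.27 for Zfp979 and -0.98 for Zfp982, with edgeR adjusted p of 0.0182 and 0.0359. Without any 1 of male LKO 5 to 8 both genes missed the threshold, with edgeR adjusted p up to 0.0623 for Zfp979 and 0.0621 for Zfp982, and at log2 fold changes of -1.75 to -1.36. In the fit of all 16 libraries Zfp982 also missed it (edgeR adjusted p = 0.132).

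Of 46 genes tested in males, 2 were called, 0 higher and 2 lower, beside 1.04% of all 15355 genes tested (0.514% lower). A gene is called here at an edgeR adjusted p under 0.05 over all genes tested. The log2 fold change was below 0 for 36 of the 46 (78.3%), against 51.6% of all genes tested, with a median of -0.16 against -0.0058. Without male floxed 1 and 2 it was below 0 for 35 of the 46 (76.1%). Every LKO male lay below every floxed male in 12 of the 46 and above in 1, beside 4.17% and 3.91% of all genes tested. An unadjusted p under 0.05 was reached by 15 of the 46, beside 12.3% of all genes. Among 270 tested Zfp genes numbered under 900, 2 were higher and 0 lower, 65.2% had a log2 fold change below 0, and the median was -0.07.

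Falling genes just outside the threshold moved far less than the pair on chromosome 4. Zfp950 was the nearest, with an edgeR adjusted p of 0.168 and a log2 fold change of -0.28 (SE 0.08), and it averaged 13.2 ± 0.891 CPM in LKO and 16.0 ± 1.33 CPM in floxed males (SD, n = 4 each). Zfp983 averaged 5.13 ± 0.487 CPM in LKO and 6.62 ± 0.738 CPM in floxed males. Zfp975 averaged 3.62 ± 0.296 CPM in LKO and 4.42 ± 0.364 CPM in floxed males, and Zfp994 averaged 4.21 ± 0.496 CPM in LKO and 5.04 ± 0.219 CPM in floxed males. These 4 did not overlap between the groups, yet none passed the threshold. Zfp946, the one gene with every LKO male above every floxed male, averaged 19.2 ± 0.962 CPM in LKO and 17.3 ± 0.881 CPM in floxed males (log2 fold change 0.15, edgeR adjusted p = 0.40). The largest log2 fold changes above 0 in males were 1.29 for Zfp972 and 0.93 for Zfp941, and neither was called. Both had low levels, with means of 0.440 and 0.827 CPM over the 16 libraries. The summed level of all the genes was 228 to 243 CPM in LKO and 259 to 284 CPM in floxed males, without overlap. In males the summed CPM of 5 adipocyte markers was 33.6 to 68.5 in LKO and 10.5 to 26.9 in floxed livers, with 1 marker at 0 in both groups. All 5 Kupffer cell markers and all 5 sinusoidal endothelial markers had a log2 fold change above 0 in males, and none was called. Of the hepatocyte markers 4 of 5 were below 0, as were all 3 neutrophil markers tested, and none was called. The part of these markers in the male results was not tested.

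**Figure D1:**
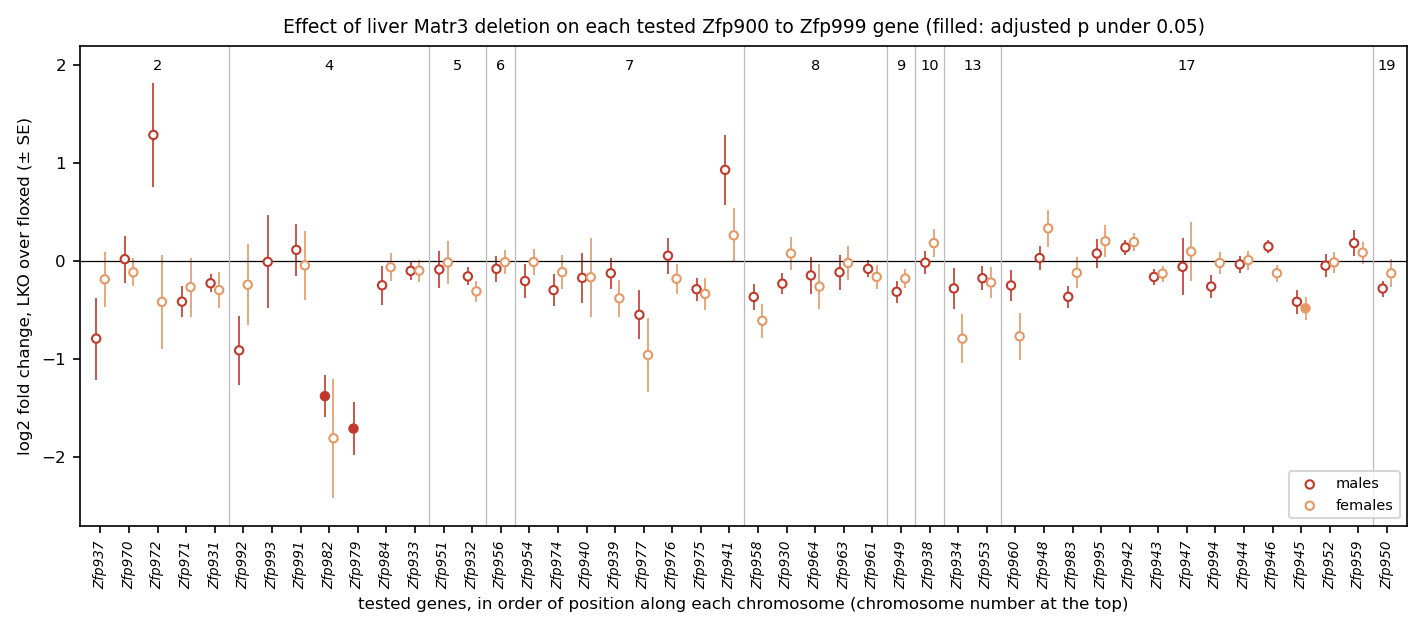
Log2 fold change, LKO over floxed (± SE), of each tested Zfp900 to Zfp999 gene in males (dark) and females (light), in order of position, with the chromosome number at the top and filled points for an adjusted p under 0.05. Most points lie below 0, and Zfp979 and Zfp982 on chromosome 4 lie lowest, at -1.71 and -1.38 in males, with Zfp982 at -1.81 in females.

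No other gene of the chromosome 4 cluster passed the test in males. Zfp992 (ENSMUSG00000070605; chromosome 4, 146449023 to 146470292, plus strand) measured 3.66, 3.26, 4.11 and 5.17 CPM in male LKO 5 to 8, against 5.03, 14.7, 6.31 and 4.46 CPM in male floxed 1 to 4. LKO 8 lay above floxed 1 and 4, and floxed 2 was the highest, as it was for Zfp979 and Zfp982. Its change on the log2 scale was -0.91 (SE 0.35, edgeR adjusted p = 0.309). Zfp984 averaged 3.27 ± 0.519 CPM in LKO and 3.88 ± 1.01 CPM in floxed males, and Zfp933 averaged 5.98 ± 0.179 CPM in LKO and 6.41 ± 0.534 CPM in floxed males. Zfp991 averaged 1.05 ± 0.212 CPM in LKO and 0.971 ± 0.328 CPM in floxed males (SD, n = 4 each). Their log2 fold changes were -0.25, -0.10 and 0.11, and none passed the threshold. Of Zfp991, 82.2% of the 50-base words occurred in other genes, as did 54.5% for Zfp984, 43.0% for Zfp992 and 1.05% for Zfp933. Of 7 cluster genes tested in males 6 had a log2 fold change below 0. Among the genes of other names that start within 500 kb of Zfp979 or Zfp982, 9 were tested in males and 0 were called, 2 of them at an unadjusted p under 0.05. In females 9 were tested and 0 called, 1 of them at an unadjusted p under 0.05. Over both sexes 10 were tested and 1 was lower (Miip, -0.31, edgeR adjusted p = 0.0477). Between floxed females and floxed males Agtrap was higher in females (0.66, edgeR adjusted p = 0.0113) and Plod1 lower (-0.25, edgeR adjusted p = 0.0462), of 10 tested.

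**Figure D2:**
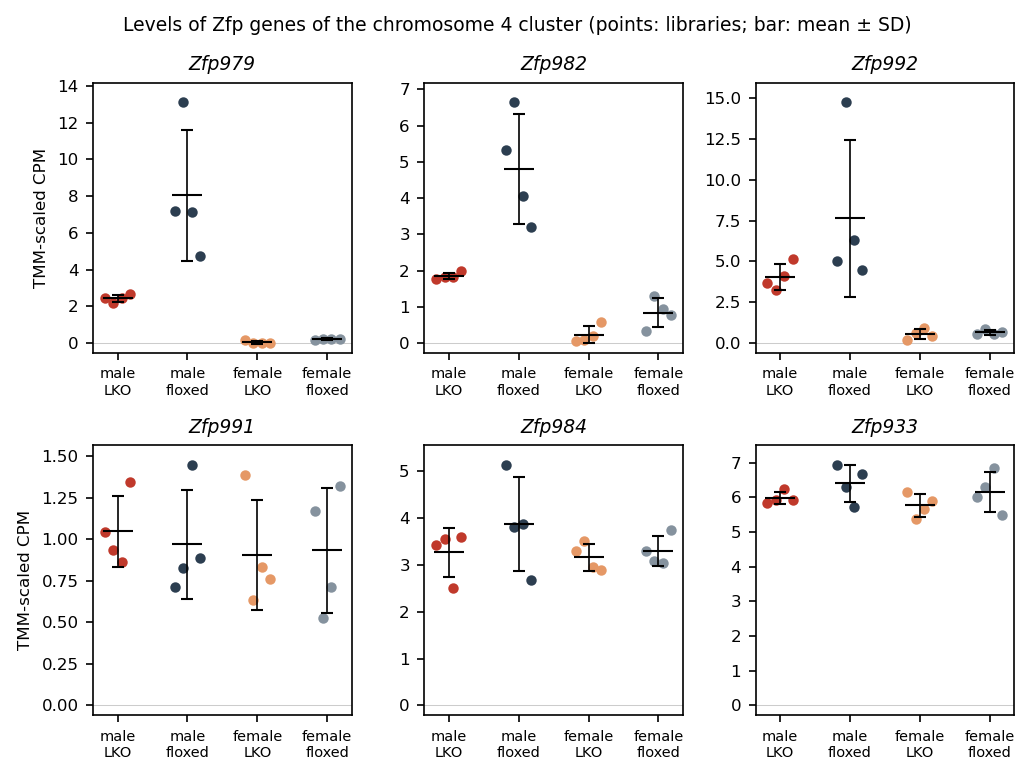
TMM-scaled CPM of 6 genes of the chromosome 4 cluster in each library (points), with the mean ± SD of each group (n = 4). Zfp979 and Zfp982 are lower in male LKO than in male floxed livers and stay at or below 1.31 CPM in all female livers, while Zfp984 and Zfp933 did not pass the test in either sex.

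In females the same comparison was made, and Zfp979 and Zfp982 were close to the limit of detection. Zfp979 had 5, 0, 0 and 1 counts in female LKO 5 to 8, against 5, 8, 7 and 8 counts in female floxed 1 to 4. With so few counts it fell under the filter of the female fit and was not tested there. Zfp982 measured 0.0618, 0.0956, 0.208 and 0.580 CPM in female LKO 5 to 8, against 0.339, 1.31, 0.934 and 0.770 CPM in female floxed 1 to 4. LKO 8 lay above floxed 1, so the groups overlapped. The change of Zfp982 was -1.81 on the log2 scale (SE 0.61, edgeR adjusted p = 0.0893). It passed the threshold with DESeq2, in the fit of all 16 libraries and without female LKO 8, but in no other alternative run.

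Zfp945 (ENSMUSG00000059142; chromosome 17, 22846697 to 22867134, minus strand) was the one gene called in females. It encodes 794 residues with 18 fingers, the longest protein of the range, and lies at the end of the chromosome 17 cluster. It measured 7.81, 9.59, 7.68 and 7.54 CPM in female LKO 5 to 8, against 11.8, 9.75, 12.0 and 12.0 CPM in female floxed 1 to 4. All LKO values lay below all floxed values, with LKO 6 and floxed 2 nearly meeting. It fell by 0.48 on the log2 scale (SE 0.12, edgeR adjusted p = 0.0322). Without female floxed 4 and LKO 7 it was -0.42 and missed the threshold (edgeR adjusted p = 0.0628), as it did without any 1 of LKO 5, LKO 8, floxed 1 or floxed 3, with edgeR adjusted p up to 0.092.

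In males Zfp945 measured 8.24, 7.76, 7.36 and 7.09 CPM in LKO 5 to 8, against 12.7, 8.77, 10.2 and 8.99 CPM in floxed 1 to 4. The male groups did not overlap either, and the change was -0.42 on the log2 scale (SE 0.12, edgeR adjusted p = 0.176). Only 0.588% of the 50-base words of Zfp945 occurred in other genes.

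Of 44 genes tested in females, 1 was called, 0 higher and 1 lower, beside 9.29% of all 15432 genes tested (4.85% lower). The count is therefore below the background of this comparison. Log2 fold changes were below 0 for 35 of the 44 (79.5%), against 49.8% of all genes tested, with a median of -0.12 against 0.0013. Without female floxed 4 and LKO 7 they were below 0 for 32 of the 44 (72.7%). Every LKO female lay below every floxed female in 5 of the 44 and above in 0, beside 7.93% and 8.05% of all genes, and 7 reached an unadjusted p under 0.05, beside 27.7%. So the female shift was small and mostly in one direction, without an excess of strong single changes. It was not seen in the chromosome 17 cluster, where 5 of 10 genes tested were below 0 in females (median -0.0044). In that cluster 6 of 10 were below 0 in males (median -0.046) and 5 of 10 over both sexes (median 0.0009). Among 268 tested Zfp genes numbered under 900, 9 were higher and 7 lower, and 52.6% had a log2 fold change below 0. The summed level of the genes was 199 to 211 CPM in LKO and 210 to 233 CPM in floxed females. Beside this shift, 2 of 5 hepatocyte markers were lower in LKO females and 3 of 5 had a log2 fold change above 0. Of the sinusoidal endothelial markers 4 of 5 were lower, with summed levels of 102 to 136 CPM in LKO and 152 to 163 CPM in floxed females. Of the stellate cell markers 2 of 5 were lower and 5 of 5 below 0, with sums of 275 to 325 CPM in LKO and 318 to 384 CPM in floxed females. Of the cholangiocyte markers 1 of 5 was lower and 5 of 5 below 0, with sums of 27.1 to 39.6 CPM in LKO and 35.0 to 52.5 CPM in floxed females. All 5 neutrophil markers had a log2 fold change above 0 (median 1.30) and none was called, with sums of 26.8 to 108 CPM in LKO and 11.3 to 72.3 CPM in floxed females. The 5 Kupffer cell markers were all above 0 too (median 0.35) and none was called, with sums of 564 to 918 CPM in LKO and 474 to 761 CPM in floxed females. None of the markers of these lists was at 0, and their part in the shift was not tested. In bulk liver, fewer cells of a type and less RNA per cell cannot be told apart.

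**Figure D3:**
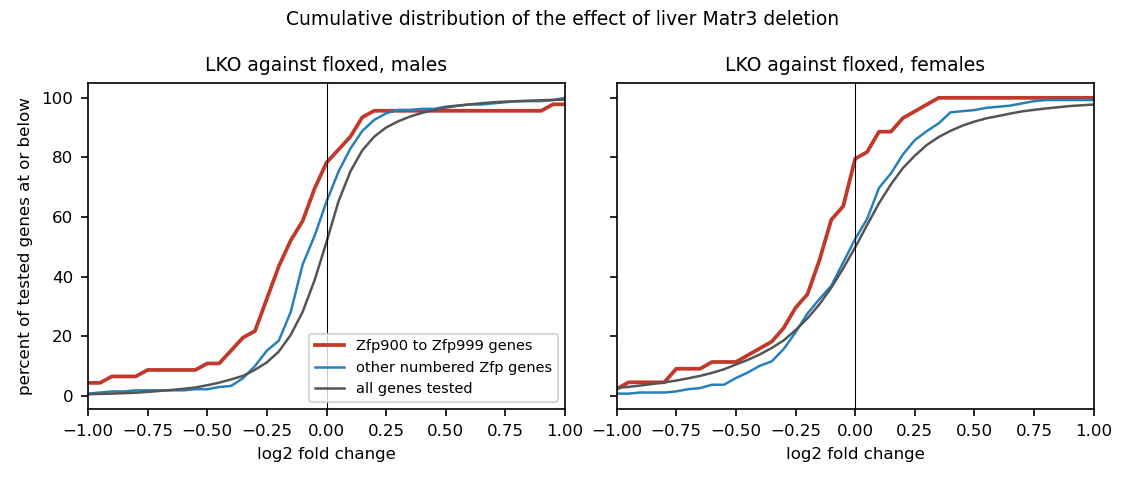
Cumulative percent of tested genes at or below each log2 fold change, LKO over floxed, in males (left) and females (right), for the Zfp900 to Zfp999 genes, the Zfp genes numbered under 900 and all genes tested. At 0 the Zfp900 to Zfp999 curve stands at 78.3% in males and 79.5% in females. The Zfp genes numbered under 900 stand at 65.2% and 52.6% there, and all genes at 51.6% and 49.8%.

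The male and female effects come from separate mice, so their directions can be set side by side. Of the 44 genes tested in both tables, 30 (68.2%) had a log2 fold change below 0 in both sexes and 5 (11.4%) above 0 in both. Over all 14921 genes tested in both tables the shares were 27.8% and 26.1%, and over 266 Zfp genes numbered under 900 they were 40.2% and 22.2%. These shares are a description of genes that are related in sequence and can share reads. Zfp934 and Zfp945 were the 2 genes with every LKO library below every floxed library in both sexes, 4.55% of the 44, against 0.771% of all genes.

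Over both sexes, 9 of 46 genes tested were lower in LKO livers and 0 higher, beside 8.55% of all 16126 genes tested (4.5% lower). This effect is the mean of the male and female effects in 1 fit of the 16 libraries, so it shares all its libraries with the comparisons above. The log2 fold change was below 0 for 35 of the 46 (76.1%), against 51.6% of all genes tested and 63.4% of 273 Zfp genes numbered under 900. It was below 0 for 34 of the 46 without male floxed 1 and 2, and for 34 without female floxed 4 and LKO 7. Zfp979 was at -1.91 (SE 0.39, edgeR adjusted p = 0.00808), Zfp982 at -1.59 (SE 0.31, edgeR adjusted p = 0.00581) and Zfp945 at -0.45 (SE 0.09, edgeR adjusted p = 0.0053). These calls held under all alternatives run, among them leaving out each library, male floxed 1 and 2, or female floxed 4 and LKO 7. Zfp979 entered this fit through the males, where it was high, and its female part rests on LKO counts of 5, 0, 0 and 1. Its value ran from -2.83 to -1.67 over the alternatives, with -2.83 without female LKO 5. Without male floxed 1 and 2, 4 genes were called, and without female floxed 4 and LKO 7, 11 were.

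Zfp958 (ENSMUSG00000058748; chromosome 8, 4613167 to 4630231, plus strand; 467 residues, 13 fingers and a KRAB A box) measured 4.79, 3.87, 5.35 and 4.51 CPM in male LKO 5 to 8, against 6.44, 6.37, 5.04 and 6.01 CPM in male floxed 1 to 4. In females it measured 3.0, 3.47, 4.05 and 3.14 CPM in LKO 5 to 8, against 4.38, 5.99, 6.32 and 4.13 CPM in floxed 1 to 4. The female groups did not overlap, and in males LKO 7 lay above floxed 3. It fell by 0.49 on the log2 scale over both sexes (SE 0.11, edgeR adjusted p = 0.0134), a call lost without male floxed 1 and 2 (edgeR adjusted p = 0.0537). In females alone it was just outside the threshold at -0.61 (SE 0.18, edgeR adjusted p = 0.0572). Without female floxed 4 and LKO 7 it was at -0.79 there (edgeR adjusted p = 0.0166).

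Zfp960 (ENSMUSG00000096696; chromosome 17, 17064113 to 17089628, plus strand; 13 fingers) measured 2.12, 2.08, 2.50 and 1.79 CPM in male LKO 5 to 8, against 2.29, 2.49, 2.99 and 2.31 CPM in male floxed 1 to 4. In females it measured 1.05, 1.05, 2.0 and 1.37 CPM in LKO 5 to 8, against 2.53, 2.76, 2.06 and 1.97 CPM in floxed 1 to 4. Both pairs of groups overlapped by 1 LKO library, LKO 7 in each sex. It fell by 0.51 over both sexes (SE 0.14, edgeR adjusted p = 0.0382). Its value is uncertain as a single-gene level, because 82.7% of its 50-base words occurred in other genes, most of them in Zfp97. The call was lost without male floxed 1 and 2 (edgeR adjusted p = 0.0614) and in 10 of the 16 fits that left out 1 library.

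Zfp949 (ENSMUSG00000032425; chromosome 9, 88548020 to 88571061, plus strand; 603 residues, 11 fingers and a KRAB A box) shared none of its 50-base words with another gene. It measured 4.96, 6.86, 6.28 and 5.72 CPM in male LKO 5 to 8, against 7.27, 7.14, 7.67 and 7.5 CPM in male floxed 1 to 4. In females it measured 7.35, 7.45, 6.94 and 6.80 CPM in LKO 5 to 8, against 8.66, 8.29, 7.26 and 8.04 CPM in floxed 1 to 4. The male groups did not overlap, and in females floxed 3 lay below LKO 5 and 6. It fell by 0.24 over both sexes (SE 0.07, edgeR adjusted p = 0.0387).

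Zfp932 (ENSMUSG00000066613; chromosome 5, 109996521 to 110010411, plus strand; 526 residues, 15 fingers) is known in mouse embryonic stem cells for repressing endogenous retroviruses together with its relative Gm15446. It measured 9.78, 8.28, 9.37 and 8.74 CPM in male LKO 5 to 8, against 10.1, 8.86, 10.8 and 10.6 CPM in male floxed 1 to 4. In females it measured 6.33, 6.05, 6.14 and 6.47 CPM in LKO 5 to 8, against 7.21, 8.21, 8.56 and 6.93 CPM in floxed 1 to 4. The female groups did not overlap, and in males floxed 2 lay among the LKO values. It fell by 0.23 over both sexes (SE 0.07, edgeR adjusted p = 0.0389). Of its 50-base words 37.0% occurred in other genes, 34.9% in Gm15446.

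Zfp934 and Zfp977 completed the 9 and were counted at low depth. Zfp934 (ENSMUSG00000074865; chromosome 13, 62479827 to 62571199, minus strand; 11 fingers) measured 0.697, 0.755, 0.711 and 0.687 CPM in male LKO 5 to 8, against 0.772, 0.800, 1.13 and 0.759 CPM in male floxed 1 to 4. In females it measured 0.432, 0.733, 0.804 and 0.488 CPM in LKO 5 to 8, against 1.02, 1.13, 0.996 and 1.11 CPM in floxed 1 to 4. Its groups did not overlap in either sex, with the males nearly touching. It fell by 0.53 over both sexes (SE 0.16, edgeR adjusted p = 0.0429). For Zfp934, 29.5% of the 50-base words occurred in other genes, 14.4% in Zfp808. Zfp977 (ENSMUSG00000092335; chromosome 7, 42579783 to 42592547, minus strand; 11 fingers and a KRAB A box) measured 0.639, 0.634, 0.618 and 0.605 CPM in male LKO 5 to 8, against 0.629, 1.29, 0.918 and 0.823 CPM in male floxed 1 to 4. In females it measured 0.154, 0.350, 0.238 and 0.366 CPM in LKO 5 to 8, against 0.617, 0.495, 0.747 and 0.308 CPM in floxed 1 to 4. It fell by 0.75 over both sexes (SE 0.22, edgeR adjusted p = 0.0447), with an overlap of the groups in each sex. The calls of Zfp932, Zfp934, Zfp949 and Zfp977 were lost in 12 of 25, 16 of 25, 13 of 25 and 16 of 24 alternatives. Without male floxed 1 and 2, the edgeR adjusted p was 0.0587 for Zfp934, 0.0665 for Zfp949 and 0.0802 for Zfp977. Without female floxed 4 and LKO 7, Zfp949 missed the threshold too (edgeR adjusted p = 0.0539).

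**Figure D4:**
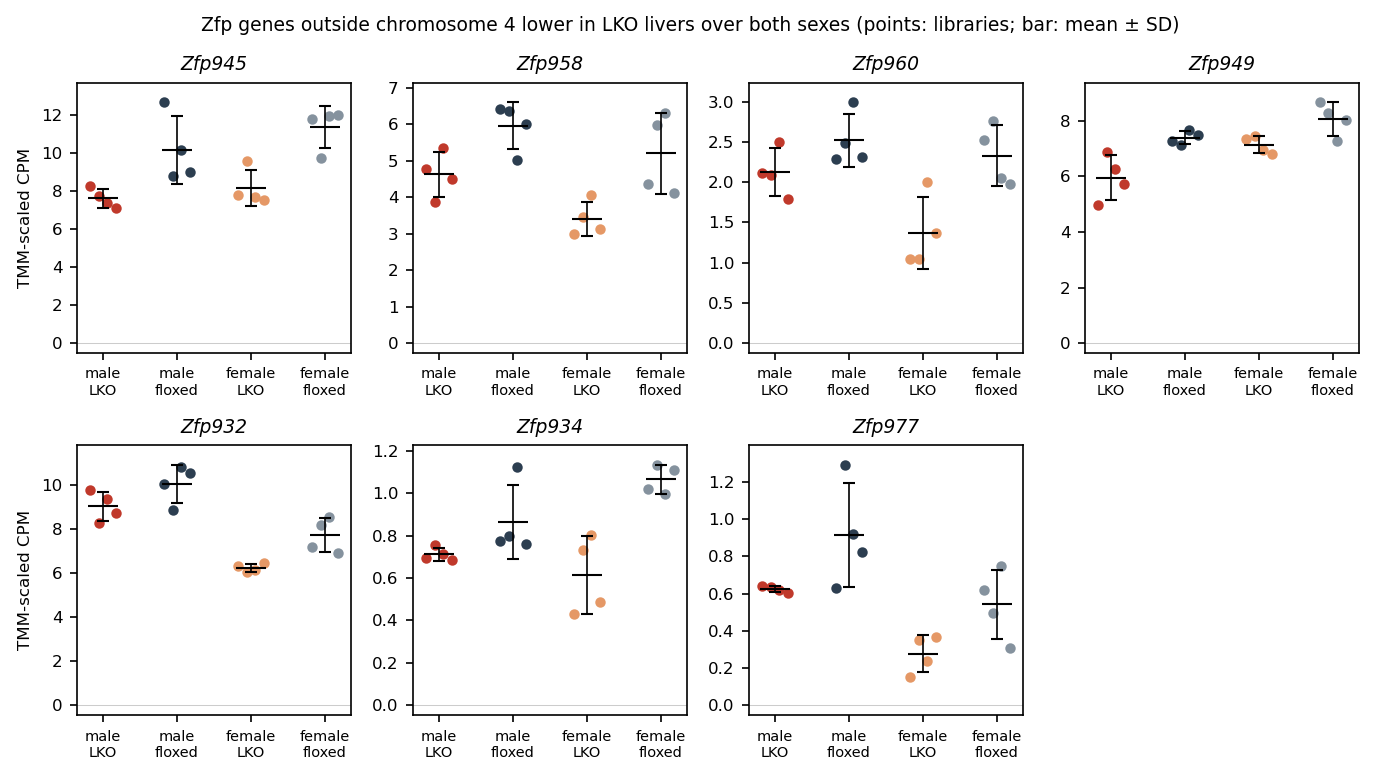
TMM-scaled CPM of the 7 genes outside chromosome 4 that were lower in LKO livers over both sexes, in each library (points) with the mean ± SD of each group (n = 4). Zfp945 and Zfp934 show no overlap between LKO and floxed livers in either sex, while Zfp960 and Zfp977 overlap in both.

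The effect of deletion was then compared between the sexes. Of 46 genes 0 passed in edgeR, DESeq2 or limma-voom, beside 4.42% of all genes tested in edgeR, and 2 reached an unadjusted p under 0.05, beside 20.5%. The 2 were Zfp946 (difference of log2 fold changes, females minus males, -0.27, SE 0.11) and Zfp972 (-1.70, SE 0.76), with edgeR adjusted p of 0.158 and 0.218. Zfp982 differed by -0.43 (SE 0.61, edgeR adjusted p = 0.747). No difference is read for Zfp979, which was under the count filter in females. Without female floxed 4 and LKO 7, Zfp960 passed (-0.83, edgeR adjusted p = 0.0462).

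Levels also differed between floxed females and floxed males. Sex and table of deposit cannot be told apart in this comparison, and it shares the floxed libraries with the comparisons above. Of 46 genes tested, 1 was higher and 8 lower in females, beside 22.9% of all genes tested (11.3% higher and 11.6% lower). Every floxed female lay below every floxed male in 9 genes and above in 1, beside 12.5% and 11.6% of all genes. Log2 fold changes were below 0 for 33 of the 46 (71.7%), against 50.2% of all genes tested, and for 24 of the 46 when library totals replaced TMM. Calls were thus near the background in number. The 8 lower include Zfp979, which entered this fit through the male libraries, as did Zfp993 among those below 0. No direction is read from these counts. In floxed females 4 of 5 Kupffer cell markers and 4 of 5 neutrophil markers were higher than in floxed males. The summed Kupffer markers ran from 474 to 761 CPM in female floxed and from 162 to 271 CPM in male floxed livers, and the summed neutrophil markers from 11.3 to 72.3 CPM in female floxed and from 5.24 to 9.84 CPM in male floxed livers. No marker of either list was at 0. The summed adipocyte markers ran from 0.247 to 5.27 CPM in female floxed and from 10.5 to 26.9 CPM in male floxed livers, with 1 marker at 0 in the male floxed group. The part of these markers in the differences was not tested.

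Zfp979, Zfp992 and Zfp982 had the largest differences, all on chromosome 4. Zfp979 averaged 0.213 ± 0.0408 CPM in female floxed and 8.03 ± 3.56 CPM in male floxed livers (SD, n = 4 each), which is -5.21 on the log2 scale (SE 0.39, edgeR adjusted p = 1.87e-07). Zfp992 measured 0.555, 0.844, 0.561 and 0.678 CPM in female floxed 1 to 4, with the male values given above, and differed by -3.52 on the log2 scale (SE 0.41, edgeR adjusted p = 1.97e-05). Zfp982 averaged 0.838 ± 0.402 CPM in female floxed and 4.80 ± 1.51 CPM in male floxed livers, or -2.51 on the log2 scale (SE 0.39, edgeR adjusted p = 0.000304). No female value reached a male value for any of the 3. Without male floxed 1 and 2 the log2 fold changes were -4.77 for Zfp979, -3.02 for Zfp992 and -2.10 for Zfp982, and each stayed past the threshold. LKO livers showed the same order of the sexes, with Zfp992 at 0.185, 0.637, 0.953 and 0.458 CPM in female LKO 5 to 8, against 3.26 to 5.17 CPM in male LKO livers. The neighbours Zfp984 and Zfp933 were at 3.30 ± 0.325 and 6.17 ± 0.572 CPM in female floxed livers, against 3.88 ± 1.01 and 6.41 ± 0.534 CPM in male floxed livers, and did not pass the threshold. Of the 7 cluster genes in this fit 3 were called. Zfp979 and Zfp993 were under the filter in the female table and entered the fit through the male libraries, so their lower level in females was largely fixed by the filter.

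In the chromosome 2 cluster Zfp931, Zfp970 and Zfp971 were lower in floxed females, 3 of 4 genes tested. Zfp931 (ENSMUSG00000078861; chromosome 2, 178067695 to 178078476, minus strand; 7 fingers) measured 3.51, 4.13, 4.36 and 3.17 CPM in female floxed 1 to 4, against 5.66, 5.78, 6.16 and 5.76 CPM in male floxed 1 to 4. The groups lay well apart, and the change was -0.62 on the log2 scale (SE 0.14, edgeR adjusted p = 0.0048). In LKO 5 to 8 it measured 3.58, 2.23, 3.66 and 2.90 CPM in females and 5.14, 4.74, 4.98 and 5.11 CPM in males. The male LKO values lay wholly below the male floxed values, at -0.23 on the log2 scale (edgeR adjusted p = 0.341). Zfp970 (ENSMUSG00000078866; chromosome 2, 177464733 to 177478129, plus strand; 14 fingers) measured 11.7, 19.2, 13.7 and 15.1 CPM in female floxed 1 to 4, against 15.4, 32.9, 23.7 and 38.8 CPM in male floxed 1 to 4. Male floxed 1 lay among the females, and the log2 fold change was -0.89 (SE 0.22, edgeR adjusted p = 0.00836). In LKO 5 to 8 Zfp970 measured 13.03, 15.4, 13.02 and 13.9 CPM in females and 25.5, 33.6, 30.02 and 23.1 CPM in males, without overlap. Zfp971 (ENSMUSG00000074519; chromosome 2, 178023284 to 178034022, plus strand; 12 fingers) measured 0.863, 2.10, 1.68 and 0.924 CPM in female floxed 1 to 4, against 2.63, 2.49, 2.10 and 2.28 CPM in male floxed 1 to 4. Its highest female value and its lowest male value were the same to 3 digits, and the log2 fold change was -0.77 (SE 0.23, edgeR adjusted p = 0.0265). In LKO 5 to 8 it measured 0.988, 1.15, 1.25 and 1.25 CPM in females and 2.06, 1.48, 1.89 and 1.70 CPM in males. There too the females lay below the males, and the male LKO values lay below the male floxed values (-0.41, edgeR adjusted p = 0.311). Of the 50-base words of Zfp931, Zfp970 and Zfp971, 23.3%, 49.5% and 51.1% occurred in other genes, so the levels of Zfp970 and Zfp971 are uncertain. Without male floxed 1 and 2 Zfp971 missed the threshold (edgeR adjusted p = 0.156), as it did without female floxed 4 (edgeR adjusted p = 0.0765).

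Of the other 3 genes called, Zfp932 averaged 7.73 ± 0.780 CPM in female floxed and 10.1 ± 0.869 CPM in male floxed livers, without overlap. Its log2 fold change was -0.38 (SE 0.09, edgeR adjusted p = 0.00736). Zfp974 (ENSMUSG00000070709; chromosome 7, 27907392 to 27929460, minus strand; 752 residues with 21 fingers, the most of the range) measured 1.70, 2.12, 2.52 and 2.62 CPM in female floxed 1 to 4, against 3.52, 2.74, 3.38 and 2.94 CPM in male floxed 1 to 4. The groups did not overlap, and the change was -0.49 on the log2 scale (SE 0.16, edgeR adjusted p = 0.0343), a call lost with library totals (edgeR adjusted p = 0.0834) and without male floxed 1 and 2 (edgeR adjusted p = 0.0958). In LKO 5 to 8 Zfp974 measured 2.16, 2.07, 2.08 and 1.98 CPM in females and 3.14, 2.18, 2.63 and 2.31 CPM in males, with female LKO 5 nearly meeting male LKO 6. Its exons overlap the antisense gene Gm26891 over 465 bases, and whether counting used the strand is not given in the sources used here. Zfp941 (ENSMUSG00000060314; chromosome 7, 140807449 to 140822178, minus strand; 674 residues, 9 fingers and a KRAB A box) was the one gene higher in females. It measured 1.05, 0.698, 1.37 and 0.893 CPM in female floxed 1 to 4, against 0.286, 0.185, 0.444 and 0.601 CPM in male floxed 1 to 4. All female values lay above all male values, and the log2 fold change was 1.40 (SE 0.34, edgeR adjusted p = 0.0073). In LKO 5 to 8 it measured 1.02, 0.892, 1.31 and 1.59 CPM in females and 0.581, 0.846, 0.927 and 0.550 CPM in males, and female LKO 6 lay below male LKO 7. Without male floxed 1 and 2 it was 0.94 and missed the threshold (edgeR adjusted p = 0.0944). Zfp941 shares 251 exon bases with Gm45785 on the same strand.

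**Figure D5:**
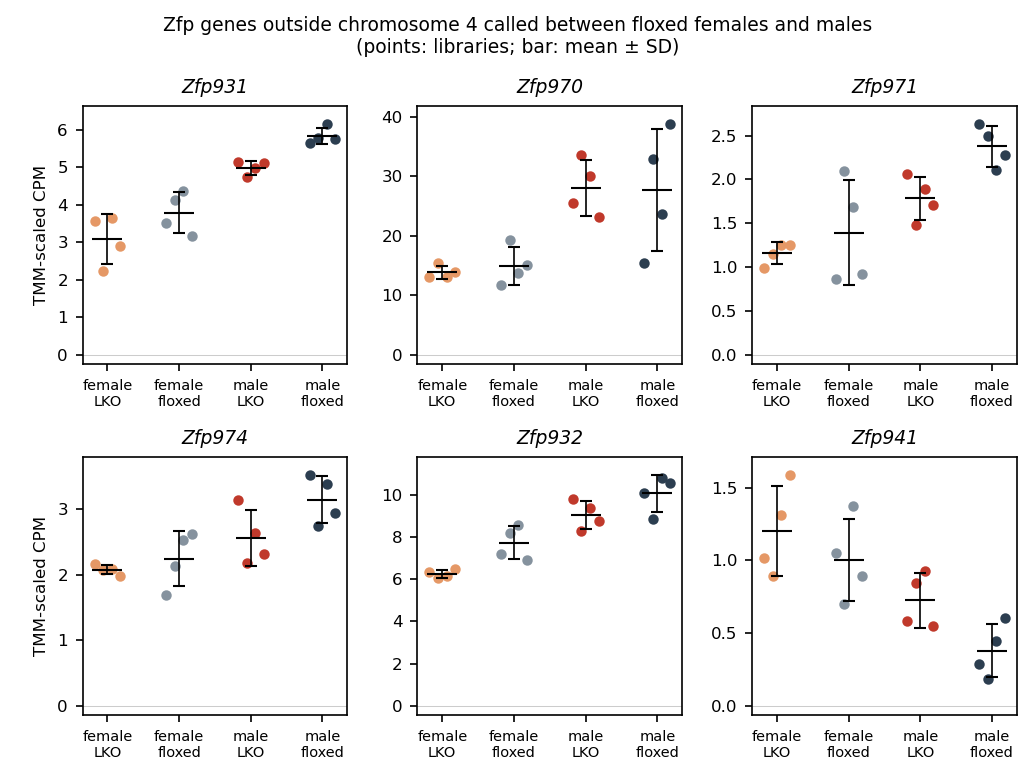
TMM-scaled CPM of the 6 genes outside chromosome 4 that were called between floxed females and floxed males, in each library (points) with the mean ± SD of each group (n = 4), female groups on the left. Zfp941 is higher in floxed females, at 0.698 to 1.37 CPM, and the other 5 are lower, with Zfp970 overlapping.

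The last list held 29 genes of the corepressor and H3K9 methylation machinery with which KRAB zinc finger proteins work. In males 0 were called, with 4 at an unadjusted p under 0.05 in edgeR. In females 0 were higher and 2 lower, beside 9.29% of all genes called in females (4.85% lower). These were Cbx5, encoding the heterochromatin protein HP1 alpha (-0.51), and Suv39h1, encoding an H3K9 methyltransferase (-0.52). Over both sexes 4 were lower and 0 higher, beside 8.55% of all genes called (4.5% lower). The 4 were Cbx5 (-0.32), Suv39h1 (-0.33), Fam208a of the HUSH silencing complex (-0.23) and the chromatin remodeller Atrx (-0.16). Log2 fold changes were below 0 for 20 of the 29 in males (69.0%), 19 in females (65.5%) and 21 over both sexes (72.4%). Over all genes tested these shares were 51.6%, 49.8% and 51.6%. The median log2 fold change of the list was -0.06 in males, -0.07 in females and -0.04 over both sexes. Its summed level was 904 to 939 CPM in LKO and 923 to 978 CPM in floxed males, and 965 to 1032 CPM in LKO and 1009 to 1107 CPM in floxed females. In floxed females 3 of the list were higher and 4 lower than in floxed males, beside 22.9% of all genes called. With counts of genes called this small, no excess over the background or lack of one is read from them. The deletion effect differed between the sexes for Smarcad1 (0.41) and Uhrf1 (-1.91), beside 4.42% of all genes.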

How the data were processed

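Liver RNA of 16 mice was sequenced as directional poly(A) libraries, per the labels' protocols. The authors deposited raw gene counts in a male and a female table of 8 libraries each, aligned to mm10 per the submitters' processing notes. The aligner, the counter and its strand setting are not given in the sources used here. Groups and replicate numbers came from the sample titles. Symbols, positions and coding sequences came from the GENCODE annotation of GRCm38, and 11 identifiers had no symbol.

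Low genes were removed by filterByExpr, set to a count of at least 10 and a total of at least 15. TMM scaling and the quasi-likelihood test of edgeR 4.0.16 in R 4.3.3 followed, with Benjamini-Hochberg adjustment over all genes tested and a threshold of 0.05. The SE printed with edgeR values is the absolute log2 fold change over the square root of the quasi-likelihood F statistic. The male and female comparisons were fitted within each table. The mean effect in both sexes, its difference between them and the comparison of floxed females with floxed males used 1 fit of the 16 libraries over the 23167 identifiers in both tables. Printed CPM are counts over the TMM-scaled library size of all 16 libraries. The procedure was also run on simulated counts drawn with 1 common dispersion for all genes. That setting is simpler than the data, and its outcome is not used here. With 1 library per mouse, p-values measure the spread between mice. DESeq2 1.42.0, limma-voom (limma 3.58.1), other scalings and filters, robust dispersion, a replicate block and left-out libraries were tried.

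The Zfp900 to Zfp999 genes, the lists and the tests were chosen with earlier results of these data known. Values in every library were given for Zfp979, Zfp982 and every other gene called in any of the 5 comparisons. Group means were given for the 6 genes highest per kilobase, for those just inside and outside the threshold in each sex, and for those with an unadjusted p under 0.05 whose groups did not overlap. Zfp933, Zfp984, Zfp991 and Zfp972 fall outside this rule and were named after their values were seen. Fingers and KRAB boxes were found by sequence pattern in the annotated coding sequences because the RefSeq protein table named in the plan was not used here. Promoter windows are RefSeq's for GRCm38.p6, of which 48 of the genes had one, and alignments used Biopython 1.88.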

Additional observations from a re-analysis of the deposited data

Results flagged for a closer look

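Single libraries stood apart within their group for 2 genes. Zfp934 measured 1.13 CPM in male floxed 3, while the other male floxed libraries ran from 0.759 to 0.800 CPM. Zfp945 measured 9.59 CPM in female LKO 6, while the other female LKO libraries ran from 7.54 to 7.81 CPM. Zfp945 measured 9.75 CPM in female floxed 2, while the other female floxed libraries ran from 11.8 to 12.0 CPM. Each gap passed Dixon's 95% criterion for 4 samples. Of 92 groups tested 3 were flagged, and chance flags about 1 in 20 groups. Female LKO 6 and floxed 2 were the libraries of Zfp945 that nearly met.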

How the results depend on the processing

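In males 2 genes were called, and 1 was in the fit of all 16 libraries. In females 1 gene was called, against 4 with DESeq2, 3 with library totals, 2 without female floxed 4 and LKO 7 (Zfp958 and Zfp960) and 6 in the fit of all 16 libraries. Over both sexes 9 were called, 5 with no filter and 4 without male floxed 1 and 2. The difference of effects gave 0, and 1 without female floxed 4 and LKO 7. The Zfp979 difference of effects changed sign there, to 0.065, against -0.41 with them. No difference is read from either value, because Zfp979 was under the count filter in females. The cause of these moves was not tested. Leaving out 1 library at a time gave 0 to 2 calls in males, 0 to 4 in females, 4 to 10 over both sexes, 0 to 0 for the difference of effects and 7 to 11 between floxed females and males. The male count was 0 without any 1 of LKO 5 to 8. The female count was 0 without LKO 5, floxed 1 or floxed 3, 2 without floxed 4 and 4 without LKO 7.

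Replicate numbers shared between the sexes gave correlations of deviations from -0.15 to 0.17 over 8 pairs, and 2 of 8 libraries correlated best with their own number, so they share only a number. With the replicate block 0 genes were called for the difference of effects and 8 between floxed females and males. Library totals moved the split of calls over all genes to 449 higher and 1240 lower in females (685 and 748 with TMM). Over both sexes it was 376 and 1079 (653 and 726), for the difference of effects 203 and 698 (318 and 395), and between floxed females and males 2460 and 1217 (1826 and 1872). Low counts limit Zfp979 and Zfp982 in females, and shared words limit the genes of recent duplicates.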
